A study of Mus musculus with 5 samples.

Results

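Heat shock protein and chaperone mRNAs of mouse embryonic stem cells (mESCs) were examined for m6A, the methylated form of adenosine. The genes were 8, namely Hsp90ab1, Hsp90aa1, Hspa8, Hspa5, Hspa9, Hspd1, Hspe1 and Hsp90b1, and every deposited position on an exon of one of them, on the strand of the gene, was taken. In the METTL3 inhibition dataset these were 2970 of 471848 positions, on 7 of the genes. In the Mettl5 dataset they were 2535 of 195787 positions, on 4 of the genes. None of the positions used here lay on Hspa8, which was therefore not analysed.

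Native poly(A) RNA was sequenced directly through nanopores, which reads each molecule from its 3′ end and calls m6A from the current. The METTL3 inhibition dataset held 1 library of cells treated with 30 µM STM2457, an inhibitor of the methyltransferase METTL3, for 48 h, and 1 library of cells given 0.025% v/v DMSO. Both came from E14 mESCs with the genotype label WT, which carried the reporters 2C::3xtbGFP-PEST and Zscan4::mCherry-PEST, a non-induced Dox::APOBEC1-YTH-HA-IRES-tdiRFP transgene and a homozygous, non-induced FKBP12 F36V knock-in at the C-terminus of Mettl3. The Mettl5 dataset held 1 library of WT mESCs and 1 library each of Mettl5-KO clone #1 and clone #2, untreated lines from earlier work. Each knockout library is 1 clone.

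The methylation level is the percent of valid calls at a position that were m6A, and a position above 25 reads throughout its dataset counts as a site once any of the libraries shows 25% or more. The libraries held 17897440 to 71574467 valid calls over all positions, with a median coverage of 45 to 64 reads, and 8.31 to 9.15% of calls failed the confidence filter of the caller. Since each condition was 1 library, a test compares libraries and not conditions, and intervals cover counting error only. Of 10 embryonic stem cell marker genes, all 10 had positions in the METTL3 inhibition dataset and 8 in the Mettl5 dataset, where Esrrb and Klf4 had none, and none of 11 markers of endoderm, mesoderm, neural cells or fibroblasts had any in either. Mettl5 and Mettl3 themselves had no position in either dataset, so the knockout could not be checked on its own transcript.

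Molecular chaperones bind unfolded or partly folded proteins and help them to reach or keep their native state. Hsp90ab1 and Hsp90aa1 encode the constitutive and the inducible HSP90 of the cytosol, and Hsp90b1 encodes the HSP90 of the endoplasmic reticulum. Hspa8, Hspa5 and Hspa9 encode the main HSP70 proteins of the cytosol, the endoplasmic reticulum (BiP) and the mitochondria, and Hspd1 and Hspe1 encode the large and the small subunit of the mitochondrial chaperonin. The METTL3 complex deposits most m6A of mRNA, at DRACH motifs (A, G or T, then A or G, then the methylated A, then C, then A, C or T), and mostly in long last exons around the end of the coding sequence. METTL5 is known for the m6A of 18S ribosomal RNA.

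The sites that the results turn on are printed here in the sense of the mRNA, 5′ to 3′, from the GENCODE M21 transcripts (build mm10), with the motif of 5 bases around the called adenosine in capitals. Positions are given as the distance from the last coding base, negative within the coding sequence. The 7 sites of Hspa5 come first because this mRNA held most of the methylation.
Hspa5 -127, chr2:34775973-34775993, + strand: caggatgcGGACAttgaagac
Hspa5 -118, chr2:34775982-34776002, + strand: gacattgaAGACTttaaagcc
Hspa5 -63, chr2:34776037-34776057, + strand: ttatcagcAAACTctatggaa
Hspa5 +44, chr2:34776144-34776164, + strand: taaatactGGACTcaggaact
Hspa5 +52, chr2:34776152-34776172, + strand: ggactcagGAACTttcgttgg
Hspa5 +78, chr2:34776178-34776198, + strand: aattgagaGAACTtaagtctc
Hspa5 +303, chr2:34776403-34776423, + strand: tggtgtagGAACTtttttcta

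The DRACH sites of the other chaperones are shown for comparison with these. The 2 sites of Hspa9 are not printed as sequence.
Hsp90aa1 +13, chr12:110691520-110691540, - strand: agtcaccaGAACTatgtgttt
Hspd1 +36, chr1:55078245-55078265, - strand: ttatcaatGAACTgtgacagg
Hsp90ab1 -1081, chr17:45569683-45569703, - strand: ttcatcatGGACAgctgtgac

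Coverage differed widely between the mRNAs. Hsp90ab1 (ENSMUSG00000023944.14, chromosome 17, 45567775 to 45573271) had 675 positions with a median of 2443 reads in DMSO and 1685 in STM2457. Hsp90aa1 (ENSMUSG00000021270.13, chromosome 12, 110690605 to 110702728) had 895 positions with medians of 99.0 and 178 reads. Hspa5 (ENSMUSG00000026864.13, chromosome 2, 34771970 to 34777547) had 695 positions with medians of 139 and 185 reads. These mRNAs were covered over 8 exons (Hspa5) or 10 exons (both Hsp90 genes), that is over nearly their whole coding sequence.

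The remaining mRNAs were covered only in part. Hspa9 (ENSMUSG00000024359.10, chromosome 18, 34937414 to 34954357) had 255 positions in its last 2 exons, with medians of 45.0 and 47.0 reads. Hspd1 (ENSMUSG00000025980.14, chromosome 1, 55077835 to 55088243) had 132 positions in its last exon, with a median of 34.0 reads in both libraries. Hspe1 (ENSMUSG00000073676.4, chromosome 1, 55088132 to 55091307) had 31 positions in 1 exon, with medians of 37.0 and 41.0 reads. For Hsp90b1 (ENSMUSG00000020048.13, chromosome 10, 86690209 to 86705509) there were 287 positions in 5 exons, between transcript bases 1532 and 2415 of 2825, so the end of its coding sequence and its 3′ UTR were not covered, and 22 of these positions also lay on another annotated gene. The absence of sites from Hspe1 and Hsp90b1 below covers these stretches only. How reads from near-identical copies, such as processed pseudogenes, were assigned is not given in the sources used here.

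The first question was how much of the chaperone m6A depended on METTL3. All 13 chaperone sites were called lower after STM2457, against 91.5% of the 6201 sites of all genes, and none was called higher, against 0.323% (Fisher's exact test, two-sided, Benjamini-Hochberg adjustment over all sites). Of the 13, 10 reached 25% in DMSO alone, so the threshold chose them in the library where they were high, which favours a lower value in the other, here as in all genes. The mean level over the 13 sites was 53.7% in DMSO and 16.3% in STM2457. The mean relative decrease was 76.1% ± 23.7 (SD over 13 sites, which are not replicates), with a median of 89.3% and a range from 25.3 to 94.6%. Over all sites the mean was 74.7% and the median 80.2%. Of the 13 sites, 7 lay on Hspa5, 2 each on Hsp90aa1 and Hspa9, and 1 each on Hsp90ab1 and Hspd1. None was found on Hspe1 or Hsp90b1, and 12 of the 13, all at 25% or more in DMSO, held a DRACH motif, against 90.1% of the 6096 such sites of all genes.

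**Figure D1:**
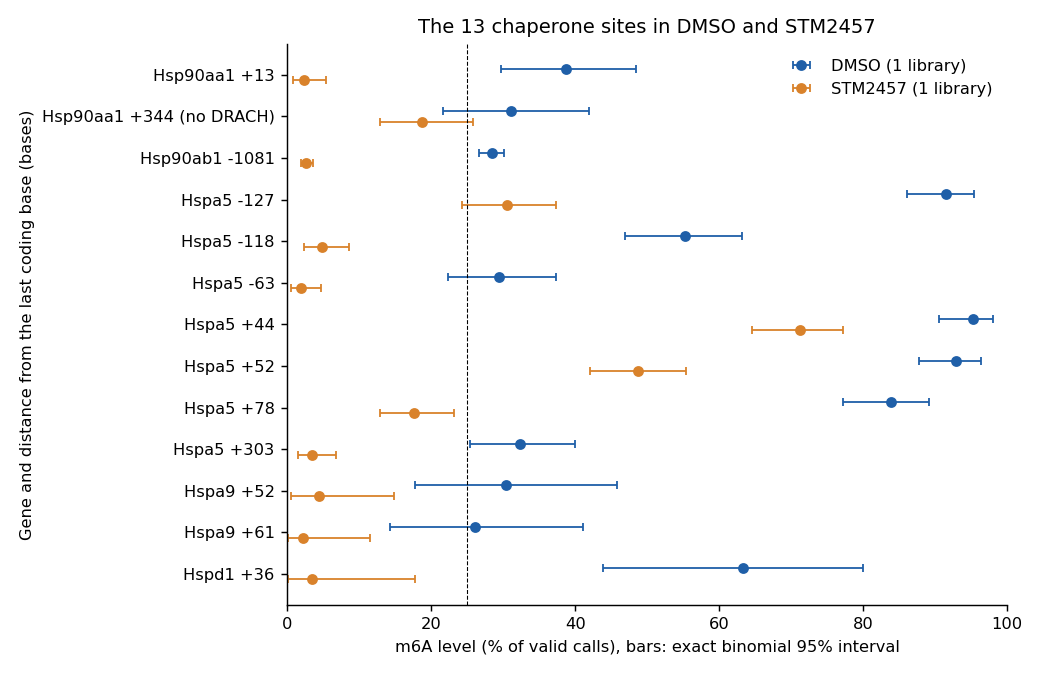
Methylation level (x axis, percent of valid calls) of the 13 chaperone sites (y axis, gene and distance in bases from the last coding base) in the DMSO library (blue) and the STM2457 library (orange), with exact binomial 95% intervals as bars and the 25% threshold as a dashed line. Every orange point lies to the left of its blue point, and only Hspa5 -127, +44 and +52 remain right of the threshold.

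Hspa5, the BiP mRNA, carried its 7 sites in the last exon, the eighth, within 127 bases before and 303 bases after the last coding base. The site +44 in the 3′ UTR had the highest level of any chaperone position, 95.3% in DMSO (143 of 150 reads, interval 90.6 to 98.1), and kept 71.2% in STM2457 (151 of 212 reads, 64.6 to 77.2). Its neighbour +52, 8 bases downstream, went from 92.95% (145 of 156 reads) to 48.7% (110 of 226 reads). The site +78 went from 83.9% (135 of 161 reads) to 17.6% (40 of 227 reads). The 3 sites spanned 83.9 to 95.3% in DMSO and 17.6 to 71.2% in STM2457, where their intervals did not overlap.

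In the coding part of the same exon, the site -127 in codon 613 went from 91.6% (142 of 155 reads) to 30.5% (62 of 203 reads). The site -118 in codon 616, 9 bases further, went from 55.2% (85 of 154 reads) to 4.74% (10 of 211 reads). The site -63 in codon 634 went from 29.4% (45 of 153 reads) to 1.84% (4 of 217 reads), and the distal site +303 from 32.3% (54 of 167 reads) to 3.46% (8 of 231 reads). The adjusted p of the 7 sites lay between 5.2e-39 for +78 and 4.2e-09 for +44 (Fisher's exact test). The mean over the 7 sites fell from 68.7 to 25.4%, and without Hspa5 the other 6 chaperone sites went from a mean of 36.3 to 5.61%.

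**Figure D2:**
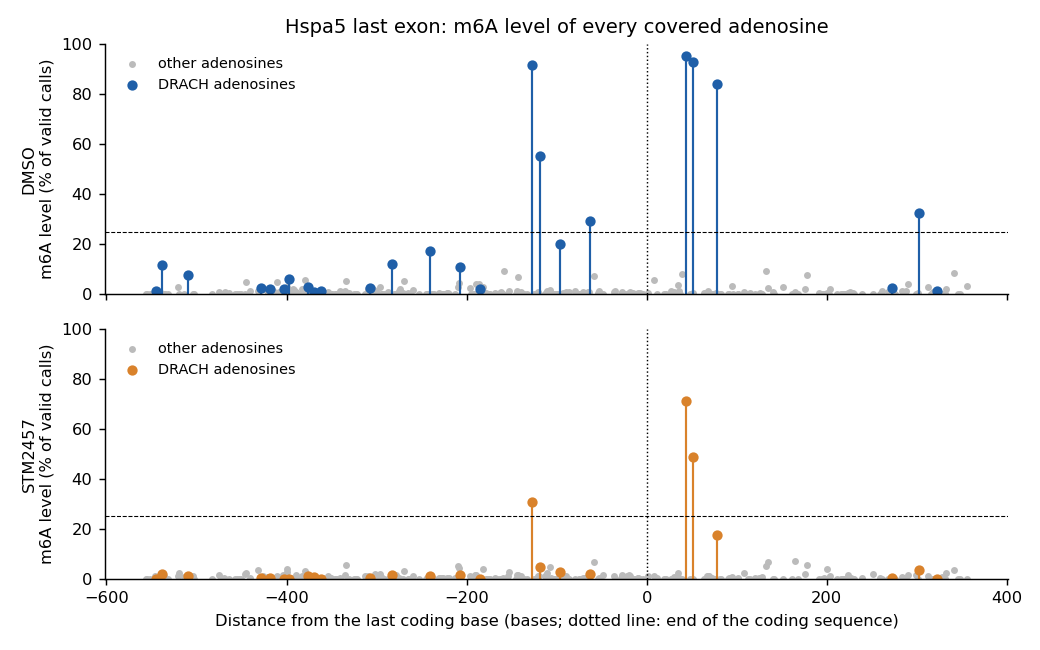
Methylation level (y axis, percent of valid calls) of every covered adenosine of the last exon of Hspa5 against its distance in bases from the last coding base (x axis), in DMSO (upper panel) and STM2457 (lower panel), with DRACH adenosines in colour, other adenosines in grey, the end of the coding sequence dotted and the 25% threshold dashed. The high levels stand between -127 and +78 and at +303, and in STM2457 only -127, +44 and +52 exceed 25%.

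Of the DRACH adenosines of this exon, 7 of 25 reached 25% in DMSO. Those from -545 to -185 had levels of 0.730 to 17.3% (27 of 156 reads at -241), and -96, between the coding sites, had 20% (31 of 155 reads). At the far end, +273 had 2.42% and +323 had 1.21%. Adenosines with the same motif differed in level. GAACT stood at -96, +52, +78 and +303 with 20%, 92.95%, 83.9% and 32.3%. Over all genes, 1511 GAACT adenosines of last exons had a median level of 20% (quartiles 5.32 and 54.1%), and 45.4% of them reached 25%. GGACT, the motif of +44, had a median of 52.2% over 1800 last-exon adenosines.

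A high level in DMSO went with a high level kept after STM2457 across the whole transcriptome, and the Hspa5 sites were read against this. The 749 DRACH sites of 90% or more in DMSO had a median of 42.9% in STM2457 (quartiles 32.4 and 58.5%), and the 1616 sites of 25 to 40% had a median of 3.70%. Among the 720 DRACH sites within 5 percentage points of the DMSO level of Hspa5 +44, the median was 43.5% in STM2457, and +44 lay above 88.2% of them. Hspa5 +52 lay above 71.6% of its 719 counterparts, whereas -127 lay above 37.2% of 680. The other chaperone DRACH sites lay above 5.94% (Hspd1 +36) to 60.5% (Hspa9 +52) of theirs.

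**Figure D3:**
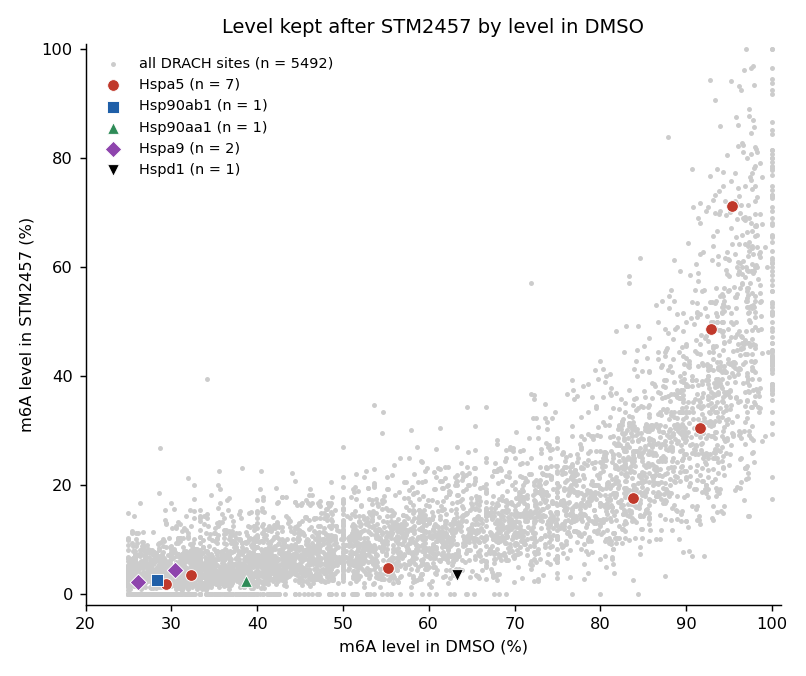
Level in STM2457 (y axis, percent) against level in DMSO (x axis, percent) for the 5492 DRACH sites of 25% or more in DMSO (grey) and the 12 of them on chaperone mRNAs (coloured by gene), each point being 1 site in 1 library per condition. The chaperone sites below 65% in DMSO lie near the bottom of the plot, and the Hspa5 sites above 90% spread from 30.5 to 71.2% in STM2457.

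No chaperone site kept at least 75% of its DMSO level, against 4.40% of the 6096 sites of 25% or more in DMSO. The 3 sites Hspa5 -127, +44 and +52 remained at 25% or more after STM2457, against 20.9% of those 6096 sites. With 13 sites, neither count stands far from the share in all genes, and +44, with a relative decrease of 25.3%, lay just beyond the limit of 25%.

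Hsp90aa1, the inducible HSP90, had 1 DRACH site, +13 in the 3′ UTR, which went from 38.7% (43 of 111 reads, interval 29.6 to 48.5) to 2.36% (5 of 212 reads, adjusted p = 7.2e-17 by Fisher's exact test). Hsp90ab1, the constitutive HSP90, also had 1, -1081 in codon 364 of exon 7. It went from 28.4% (733 of 2585 reads, interval 26.6 to 30.1) to 2.62% (46 of 1756 reads, adjusted p = 3.1e-124, exact test). Of the 13 sites of this dataset it was the only one outside a last exon. The depth of Hsp90ab1 makes this interval the narrowest of the 13.

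In the mitochondrial group, Hspa9 had the 3′ UTR sites +52, which went from 30.4% (14 of 46 reads) to 4.35% (2 of 46 reads), and +61, from 26.1% (12 of 46 reads) to 2.17% (1 of 46 reads). Their adjusted p were 0.00215 and 0.00210 (Fisher's exact test). Hspd1, the large chaperonin subunit, had the 3′ UTR site +36, which went from 63.3% (19 of 30 reads, interval 43.9 to 80.1) to 3.45% (1 of 29 reads, 0.0873 to 17.8, adjusted p = 1.7e-06, exact test). Its relative decrease of 94.6% was the largest of the 13, from the fewest reads. None of the 4 covered DRACH adenosines of Hspe1 exceeded 5.56%, and none of the 21 of Hsp90b1 exceeded 10.6%.

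The thirteenth site, Hsp90aa1 +344, held no DRACH motif and is shown because more of its calls failed than at the DRACH sites.
Hsp90aa1 +344, chr12:110691189-110691209, - strand: tcttagaaGTAAAcacaagtt
It went from 31.0% (27 of 87 reads) to 18.7% (29 of 155 reads), a relative decrease of 39.7% with an adjusted p of 0.0421 by Fisher's exact test. Of the calls there, 25% failed the confidence filter in DMSO and 32.9% in STM2457, against medians of 3.23 and 2.86% at all DRACH sites and 26.2 and 25% at all non-DRACH sites. With failed calls in the denominator the levels were 23.3 and 12.55%, both under the threshold of a site. Of the 604 non-DRACH sites of all genes at 25% or more in DMSO, 52.8% were called lower, against 97.5% of the 5492 such DRACH sites.

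The threshold of 25% separated sites that lay near each other. Just inside it were Hspa9 +61 (26.1%), Hsp90ab1 -1081 (28.4%) and Hspa5 -63 (29.4%), and just outside, by the higher of the DMSO and STM2457 levels, were Hsp90ab1 -2152 (22.1% in DMSO), Hspa5 -96 (20% in DMSO) and a non-DRACH position of Hsp90ab1 (16.6% in DMSO and 18.5% in STM2457). DRACH adenosines of 10 to 25% in DMSO were therefore looked at as well. The chaperones had 17, and all 17 had a lower level after STM2457, as did 3504 of the 3510 of all genes, likewise chosen on their DMSO level. Of the 17, 16 were called lower, against 59.9% of the 3510, which were not matched for coverage. In DMSO their median was 13.7%, in STM2457 1.45%, and the highest after STM2457 was 3.21%. Hspa5 had 7 of them, Hsp90aa1 4, Hspa9 and Hspd1 2 each, and Hsp90ab1 and Hsp90b1 1 each. The 1 that did not pass, on Hspd1, went from 15.8% (6 of 38 reads) to 2.50% (1 of 40 reads).

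The next question was where on these mRNAs the methylation stood. Of the 242 covered chaperone DRACH adenosines, 12 reached 25% in DMSO, a share of 4.96% (exact interval 2.59 to 8.50), against 14.2% of the 38760 of all genes. Internal coding exons held 169 of the 242 and 1 of the 12, against 3.70% of such adenosines in all genes. In the coding part of the last exon 3 of 24 reached 25%, against 17.9%, and in the 3′ UTR 8 of 44, against 18.6%. Of the 5 covered in a 5′ UTR, all on Hspa5, none did. Within 100 bases of an exon junction it was 0 of 133, which allows a share of up to 2.74% (exact interval), against 2.07% in all genes. At 100 bases or more it was 12 of 109, or 11.01%, against 20.3%.

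The mRNAs differed in total. Over 61 covered DRACH adenosines of Hspa5 the levels summed to 6.70 m6A per mRNA in DMSO and 2.08 in STM2457, a sum over positions that were read on different molecules. Hsp90aa1, with 75, had 1.85 and 0.349, and Hsp90ab1, with 56, had 0.974 and 0.192. Hspd1 summed to 1.049 and 0.0858, Hspa9 to 1.02 and 0.0848, Hsp90b1 to 0.361 and 0.0161, and Hspe1 to 0.0556 and 0.025, over the stretches covered. Per DRACH adenosine the mean level in DMSO was 10.98% in Hspa5, above 57.02% of the 1589 genes with 10 or more, whose median was 9.07%. It was 2.47% in Hsp90aa1 and 1.74% in Hsp90ab1, above 17.3 and 12.7% of those genes. These ranks were not matched for the place of the adenosines. Internal coding exons held 59 of the 75 in Hsp90aa1, 55 of the 56 in Hsp90ab1 and 31 of the 61 in Hspa5, against 10217 of 38760 in all genes. The adenosines outside DRACH gave the background of the calls, which on these mRNAs was 0.506 to 0.935% of pooled calls in DMSO and 0.395 to 0.938% in STM2457.

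Hsp90aa1 and Hsp90ab1 are close paralogues, and their coding sequences could be set base against base. They were identical at 76.6% of 2171 aligned bases. DRACH stood at the same aligned adenosine in 22 places and in only 1 of the genes in 46. The methylated adenosine of Hsp90ab1 in codon 364, -1081, aligned with an adenosine of Hsp90aa1 in codon 373 that was not in a DRACH motif. The same held for -214 of Hsp90ab1, in codon 653. Both pairs are shown, with the motif of 5 bases in capitals.
Hsp90ab1 -1081, chr17:45569683-45569703, - strand: ttcatcatGGACAgctgtgac
Hsp90aa1 -1081, chr12:110693733-110693753, - strand: tttatcatGGATAactgtgag
Hsp90ab1 -214, chr17:45568326-45568346, - strand: gctgtcaaGGACCtggtggtg
Hsp90aa1 -214, chr12:110692211-110692231, - strand: tctgtgaaGGATCtggtcatc
At -1081, Hsp90ab1 had 733 m6A calls in 2585 reads (28.4%) and Hsp90aa1 had 0 in 100. At -214, Hsp90ab1 had 384 in 2797 (13.7%) and Hsp90aa1 had 0 in 108. These 2 were the highest levels among the 46 places, and the next was 6.78% (179 of 2639 reads). At some of the 46 places the gene without DRACH had the higher level. At all but 1 of these neither gene exceeded 2.02%. At the remaining place Hsp90aa1 held DRACH, in codon 184, with 0 in 98, and Hsp90ab1, without DRACH in codon 179, had 125 in 2077 (6.02%). Where both genes held DRACH, 20 of the 22 places were under 5% in both. The highest level among the 22 was 16.5% (18 of 109 reads) in Hsp90aa1 at -377, where Hsp90ab1 had 5.41% (138 of 2553 reads), and no other place reached 10% in either gene. Spearman's rho over the 22 was 0.437, as a description. The shared places lie on the same 2 mRNAs of 1 library and are not independent.

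The Mettl5 dataset asked whether loss of METTL5 changed these sites. On Hsp90ab1, Hsp90aa1, Hspa5 and Hsp90b1 there were 9 sites, and Hsp90b1 had none of them. By Fisher's exact test with Benjamini-Hochberg adjustment, 0 of the 9 passed in both clones in the same direction, against 0.265% of 1886 sites of all genes, and 0 passed in either clone alone, against 0.530% in clone #1 and 0.583% in clone #2. At an unadjusted p below 0.05 in both clones there were 2, against 2.44%. Both clones share the same WT library, so their differences from it are not independent.

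These 2 sites were on Hspa5 and were higher in the clones. Hspa5 -127 was at 82.8% (77 of 93 reads) in WT, 96.4% (107 of 111) in clone #1 and 94.3% (115 of 122) in clone #2. The differences were 13.6 points (95% interval 5.35 to 22.8) and 11.5 points (2.995 to 20.9), with adjusted p of 0.156 and 0.347 by Fisher's exact test. Hspa5 +52 was at 86.8% (79 of 91 reads) in WT, 97.2% (105 of 108) and 97.3% (109 of 112), with differences of 10.4 points (2.94 to 19.1) and 10.5 points (3.16 to 19.15) and adjusted p of 0.370 and 0.282 by the same exact test.

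Of the other Hspa5 sites, +44 and +78 were also higher in both clones, whereas -118 and +303 were slightly lower in both. The site +44 was at 91.7, 99.0 and 96.9% in WT, clone #1 and clone #2, and +78 at 72.2, 79.2 and 87.6%. The site -118 was at 54.3, 54.0 and 53.7%, with intervals of the difference from -13.8 to 13.1 points in clone #1 and from -13.8 to 12.7 in clone #2, and +303 was at 28.0, 26.2 and 23.3%, the last on 30 reads. For Hsp90aa1 +13 the levels were 21.9% (151 of 689 reads), 23.9% (120 of 502) and 25.4% (129 of 507), and the interval of the difference reached from -2.80 to 6.88 points in clone #1 and from -1.31 to 8.46 in clone #2. Over the 9 sites the clones exceeded WT by a mean of 4.91 points, 5.03 in clone #1 and 4.80 in clone #2, against 2.43 points over all sites. The chaperone mean was 1.66 points over the 66 sites of a 10% threshold and 2.465 points over the 3 sites of 100 or more reads. Both clones were above WT at 5 of the 9, against 45.1% of all sites.

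**Figure D4:**
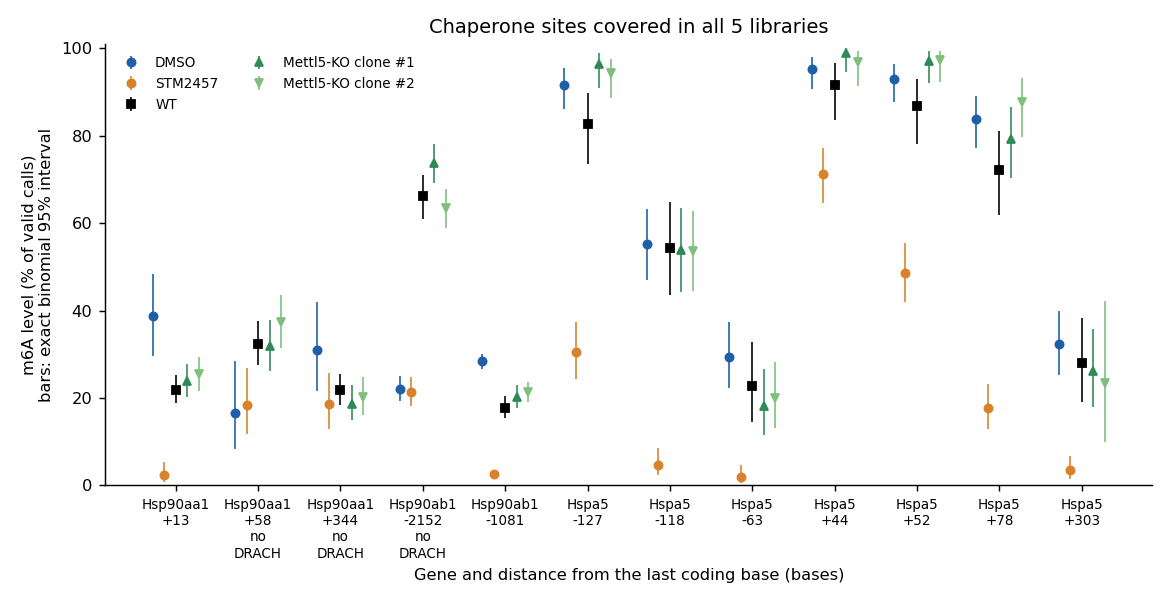
Methylation level (y axis, percent of valid calls, bars exact binomial 95% intervals) of the 12 chaperone sites above 25 reads in all 5 libraries (x axis, gene and distance in bases from the last coding base), for DMSO, STM2457, WT and both Mettl5-KO clones. The STM2457 points lie below the others at the DRACH sites, and at Hsp90ab1 -2152 the 3 libraries of the Mettl5 dataset stand at 63.4 to 73.8% against 22.1 and 21.3% in DMSO and STM2457.

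Sites without DRACH made up 2 of the 9, both with the motif CCATG, and are printed because they share it.
Hsp90ab1 -2152, chr17:45571882-45571902, - strand: gaagtgcaCCATGgagaggag
Hsp90aa1 +58, chr12:110691475-110691495, - strand: tatattttCCATGatttttgt
Hsp90ab1 -2152, in codon 7 of exon 2, was at 66.2% (235 of 355 valid calls) in WT, 73.8% (293 of 397) in clone #1 and 63.4% (296 of 467) in clone #2, but at 22.1% (197 of 893) in DMSO and 21.3% (125 of 586) in STM2457. The calls that failed the filter were 54.4 to 62.9% of all calls there. With failed calls in the denominator the levels were 29.3, 33.7 and 27.3% in WT and the clones, and 8.40 and 7.92% in DMSO and STM2457. Hsp90aa1 +58 was at 32.4, 31.8 and 37.5% in WT and the clones, and at 16.7% (10 of 60) and 18.4% (21 of 114) in DMSO and STM2457, with 46.4 to 49.4% of calls failed. The STM2457 level of both lay inside the DMSO interval, and what was called there was not tested.

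The untreated libraries of both datasets, DMSO and WT, gave the same sites in different cell lines and batches, which cannot be told apart. Of 12 chaperone sites above 25 reads in all 5 libraries, 3 differed (Fisher's exact test, adjusted), against 15.1% of 1500 sites of all genes. Hsp90aa1 +13 was at 38.7% in DMSO and 21.9% in WT (adjusted p = 0.00487, exact test), and Hsp90ab1 -1081 at 28.4 and 17.8% (adjusted p = 1.6e-08, exact test), both lower in WT as were 11.2% of all sites. Hsp90ab1 -2152 was higher in WT (adjusted p = 2.8e-45, exact test), as were 3.93% of all sites. None of the 7 Hspa5 sites passed, although all 7 were lower in WT, with differences of 0.847 to 11.6 points. All 9 chaperone DRACH sites were lower in WT, as were 1046 of the 1248 DRACH sites of all genes.

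The order of the mRNAs was the same in every library. Over DRACH adenosines covered in all 5, the summed level of Hspa5 was 6.69 in DMSO, 2.08 in STM2457, 5.72 in WT and 6.24 and 6.37 in the clones. For Hsp90aa1 it was 1.85, 0.349, 1.38, 1.54 and 1.62, and for Hsp90ab1 0.974, 0.192, 0.716, 0.723 and 0.735. For Hsp90b1 it was 0.361, 0.0161, 0.221, 0.224 and 0.260. The sums of WT and the clones had no test and lay closer to each other than to STM2457.

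Read depth was compared next, per 1000000 reads that passed the quality filter of each library, as the median ratio over the positions of a gene. In these bulk libraries fewer expressing cells and less RNA per cell cannot be told apart. After STM2457, Hsp90aa1 had 2.21 times the depth in DMSO, above 98.9% of 2317 genes, Hspa5 1.62 times and Hsp90b1 1.60 times. Hspa9 (1.27) and Hspd1 (1.22) stayed under 1.5-fold, and Hsp90ab1 (0.840) was the only one below 1. Thus 3 of 6 mRNAs with 50 or more positions were past 1.5-fold, against 9.11% of all genes, whose median ratio was 0.989. Hspe1, with 31 positions, had 1.35 and was not counted. Hspa5 and Hsp90b1 encode chaperones of the endoplasmic reticulum, and the ratios of other folding genes of that compartment were mixed. Among these, Pdia3 (2.18) was past 1.5-fold. Pdia6 (1.32), Canx (1.30), Manf (1.22) and Dnajb11 (1.22) stayed under it. Pdia4 (0.982), Calr (0.914), Creld2 (0.903) and P4hb (0.884) were below 1. With 1 library per condition these ratios have no test.

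Between the clones and WT the median gene itself had a ratio of 1.48 in clone #1 and 1.36 in clone #2, a shift of 0.56 and 0.44 on the log2 scale, so ratios are given relative to it. Hsp90ab1 was at 1.21 and 1.31, Hspa5 at 1.34 and 1.235, Hsp90b1 at 1.02 and 1.31, and Hsp90aa1 at 0.819 and 0.722. On this scale 0 of 4 were past 1.5-fold in both clones, against 3.61% of genes higher and 4.33% lower. Without centring it was 3 of 4, Hsp90ab1, Hspa5 and Hsp90b1, against 30.6%.

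**Figure D5:**
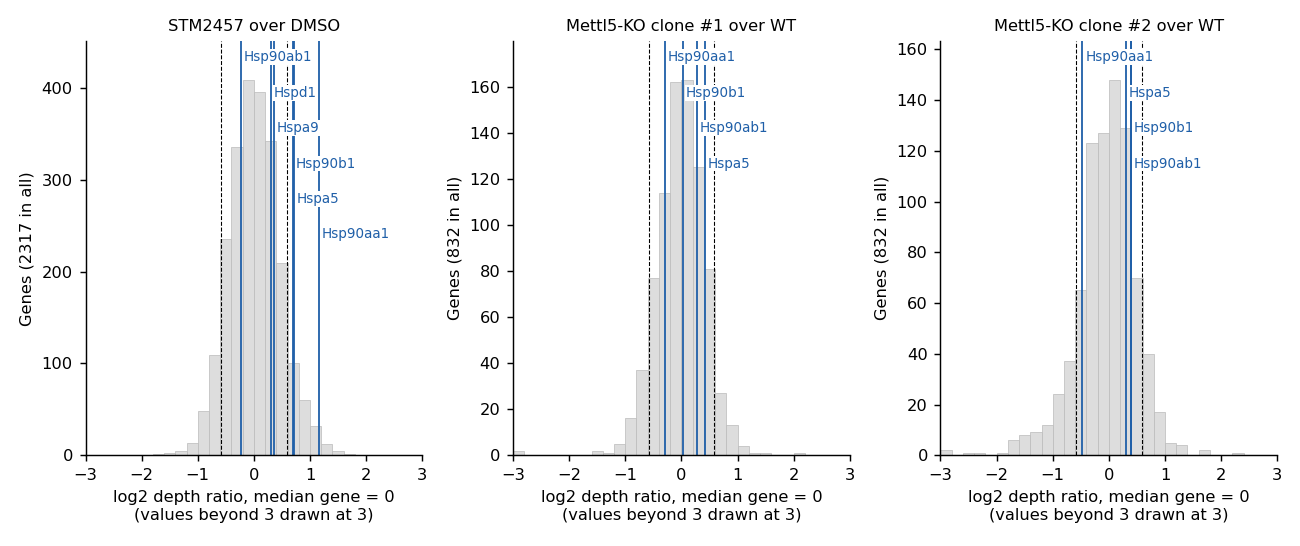
Histograms of the log2 depth ratio of all genes (x axis, median gene at 0, values beyond 3 drawn at the edge; y axis, number of genes) for STM2457 over DMSO and for each Mettl5-KO clone over WT, with the chaperone mRNAs as blue lines and 1.5-fold as dashed lines. Hsp90aa1 lies on the right after STM2457 (2.23 times the median gene) and on the left in both clones (0.819 and 0.722).

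Of the 4 mRNAs, the WT and DMSO depth differed most at Hsp90aa1. Over the same 895 positions its depth was 77.3 reads per 1000000 in DMSO, 169.5 in STM2457, 929 in WT and 1120 and 904 in the clones. The WT depth was 12.02 times that in DMSO and 18.2 times relative to the median gene, above 99.7% of 733 genes. Hsp90b1 had 35.2, 57.1, 162, 246 and 288 reads per 1000000, a ratio of WT to DMSO of 6.98 relative to the median gene, above 98.9% of genes. Hspa5 (1.73) and Hsp90ab1 (0.9995) lay nearer the median gene. Cell line and batch differ here too, and their parts cannot be told apart.

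Other genes of protein folding were taken from a list of 73 co-chaperones, foldases and stress regulators. Of these, 37 had positions and 28 had at least 1 site, 79 in all. After STM2457, 71 of the 79 were called lower, against 91.5% of the sites of all genes, and 0 higher, against 0.323%. Their mean relative decrease was 74.9%. The genes with most sites were Dnajb1, a J-domain co-chaperone of HSP70, with 11, and Pdia4, a disulfide isomerase of the endoplasmic reticulum, with 7, followed by Hsph1, a nucleotide exchange factor of HSP70, and Hspbap1 with 5 each. In Dnajb1, 10 of 11 were called lower, and all 7 of Pdia4 were.

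Of the 78 sites at 25% or more in DMSO on these genes, 3 kept at least 75% of their level, against 4.40% of all such sites. Dnajb1 +277 in the 3′ UTR was at 97.8% in DMSO (45 of 46 reads) and 87.1% in STM2457 (27 of 31 reads), with an adjusted p of 0.160 by Fisher's exact test. The other 2 held no DRACH. They were on Lonp1, a mitochondrial protease (58.3 and 62.2%), and Calr, the lectin chaperone calreticulin (26.4 and 22.1%). In the Mettl5 dataset these genes had 37 sites, of which 0 passed in both clones after adjustment, against 0.265%, and 1 at an unadjusted p below 0.05, against 2.44%.

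The mean site level over the 5 libraries was used to find the gene most like each chaperone with 2 or more sites, among 343 genes. For Hspa5 this was Phf23, whose means of 72.7, 23.2, 64.4, 68.6 and 68.35% in DMSO, STM2457, WT and the clones stood within 4.01 points of the 68.7, 25.4, 62.65, 67.2 and 67.6% of Hspa5. For Hsp90aa1, whose sites +58 and +344 lay outside DRACH, it was Cox8a with 2 sites, within 3.46 points. For Hsp90ab1, with 1 site outside DRACH, it was Uqcrfs1, within 9.27 points.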

How the data were processed

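Direct RNA reads were split by barcode with WarpDemuX, basecalled, modification-called and mapped to mm10 with dorado by the authors, and modkit pileup gave the calls at each position. The deposited files hold counts of valid, m6A, unmodified, other-modification and failed calls per position and strand, without normalization, for positions of 25 or more valid calls in every library of a dataset. The deposited percent is m6A over valid calls, so failed calls are outside it. Other columns were not used.

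Positions were assigned to exons of GENCODE M21 on the strand of the call, and motifs came from its transcripts. The 8 genes, the other gene lists and the tests were chosen with earlier results of these data known. A two-sided Fisher's exact test was run per site in scipy 1.17.1 under Python 3.11.15 (pandas 2.3.3, numpy 2.4.6) and p-values were Benjamini-Hochberg adjusted over every site of that comparison, after the code was tested on simulated data. Intervals are exact binomial at 95%, or Newcombe's for differences. Read depth used the pass reads per library that the methods give, over genes with 50 or more positions. Coding sequences were aligned with biopython 1.88. Given in full were the 3 highest sites of each gene, sites keeping 75% of their level, and sites called in both clones, with the other sites by shorter values. Related genes were named by number of sites or for a kept site. Hsp90aa1 -214, -377, codon 184 and +344, the CCATG positions and the neighbouring Hspa5 adenosines were chosen after their values were seen. So were the depth ratios of other genes of the endoplasmic reticulum. Alternatives were 10 and 50% thresholds, 50 or 100 reads, failed calls in the denominator, DRACH only, unadjusted p, pooled calls and other depth scales.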

Additional observations from a re-analysis of the deposited data

Results flagged for a closer look

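Calls of modifications other than m6A were used in no comparison, and at 3 positions of chaperone mRNAs they made up 10% or more of valid calls in every library. At Hsp90ab1 chromosome 17, 45569040, the share was 20.16% (1865 valid calls) in DMSO, 17.4% in STM2457, 20.5% in WT, and 19.4 and 20.2% in the Mettl5-KO clones. At Hsp90ab1 45569700 it was 12.77, 14.2, 12.95, 11.99 and 11.9%, in the same order. At Hspa5 chromosome 2, 34775591, it was 12.84% (109 valid calls), 18.0, 21.6, 18.6 and 19.2%. All 3 lay in coding sequence outside DRACH motifs, and 24.4 to 42.7% of the calls there failed the confidence filter. There were no control samples without modification, and the differences between libraries were not tested.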

How the results depend on the processing

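Of 114 recalculated differences at single sites between STM2457 and DMSO, 113 kept their direction and their call, and Hsp90aa1 +344 lost its call at the 10% threshold (adjusted p = 0.068, exact test). The number of chaperone sites called lower was 28 of 49 at a threshold of 10% and 6 of 6 at 50%. The 28 were the 12 DRACH sites of 25% or more in DMSO and 16 DRACH adenosines of 10 to 25%. No site outside DRACH was called at 10%. Sites keeping 75% of their level numbered 9 of 49 at 10%, all outside DRACH. With failed calls in the denominator 1 did, Hspa5 +44, and 12 sites were left because Hsp90aa1 +344 fell under 25%. Shares over all genes were not taken for these counts. The mean relative decrease was 61.9% (10% threshold), 67.4% (50%), 71.7% (50 or more reads), 79.1% (failed calls in the denominator, and likewise 79.13% with DRACH only), 68.8% (pooled calls), 89.3% (median) and 82.7% (without Hspa5). The share of DRACH adenosines past the threshold was 11.98% at 10%, 2.48% at 50%, and 11.01% at 100 bases or more from a junction. Against WT, 2 of 9 sites changed in both clones without adjustment, against 2.44% of all sites. With the clones pooled 0 passed (lowest adjusted p 0.0696 and 0.0745, Fisher's exact test), against 13 of 1886 sites of all genes. The mean difference of the clones from WT was 1.66 points (10%), 7.07 (50%), 5.93 (50 reads) and 2.465 (100 reads), and between 4.796 and 5.032 with 1 clone left out. Sites that differed between DMSO and WT numbered 6 of 12 without adjustment, 15 of 55 at 10% and 1 of 6 at 50%, again without shares over all genes. mRNAs past 1.5-fold in both clones numbered 0 when scaled by valid calls and 0 when centred. Of 30 recalculated depth ratios, 7 crossed 1.5-fold, namely Hspa9 after STM2457 by its highest coverage (1.56) and Hsp90ab1, Hsp90b1 and Hspa5 in the clones on both of those scales. No paired analysis was possible because DMSO, STM2457 and WT have 1 library each. Sites resting on 29 to 46 reads, on Hspa9 and Hspd1, allow only wide intervals.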
